A study of Mus musculus with 6 samples.

Results

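Ucp3, Pdk4 and a small set of muscle genes that respond to fasting or to peroxisome proliferator-activated receptors (PPARs) were followed in whole mouse tongue. The set of 9 genes was Ucp3, Ucp2, Pdk4, Cpt1b, Angptl4, Acot2, Fabp3, Cd36 and Acadl, and 7 of them were among the 18193 genes with a probe set of their own. Ucp3 was chosen by its fall in these same arrays, so its values are given as a description with no test. The other genes were picked from known function, with earlier results of these arrays in view. Ucp2 had no probe set annotated to it, and Cpt1b had only 1 that it shares with other genes, so neither is reported on its own.

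The tongues came from adult C57BL/6J mice, an inbred laboratory strain, and the labels name no transgene or deletion. The control group was 3 untreated mice, and the 4NQO group was 3 mice whose drink held 100 μg/ml of the carcinogen 4-nitroquinoline 1-oxide (4NQO), which damages DNA, for 8 weeks. Total RNA of each tongue was read on 1 Affymetrix array, and values are log2 signals. The median over all probe sets was 4.45 to 4.60 on the 6 arrays, and signals below it are called low here. RNA came from whole tissue, in which fewer cells of a type and less RNA per cell cannot be told apart.

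PPARs are nuclear receptors that bind fatty acids and, paired with a retinoid X receptor, switch on genes for taking up, storing and burning fat. In skeletal muscle this programme rises in fasting, when muscle turns from glucose to fatty acids. UCP3 is a carrier of the inner mitochondrial membrane found mainly in skeletal muscle, and PDK4 is a kinase that shuts off pyruvate dehydrogenase and so spares glucose.

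The PPAR and retinoid X receptor pair binds a direct repeat of the motif AGGTCA with 1 base between the copies. RefSeq sequence of GRCm38.p6 held 300-base windows around the gene start, 250 bases before it and 50 after, for 7 of the 9 genes. Of these 7, Ucp3 and Cd36 held a match to the repeat with at most 2 mismatches over its 12 defined bases on either strand, against 3.86% of all 32851 windows. The Ucp3 match, AGGTTTCAGGTCA on the gene strand, ended 38 bases before the start. The Cd36 match, AAGTCAGAGGCCA on the other strand, lay 50 bases before it and is printed as its complement along the gene. The 250 bases before the start are shown for these genes, and for Pdk4. Its profile lay closest to that of Ucp3 when each gene was read by its probe set of highest mean. The sequences read along each gene's strand, with the match in capitals. They lie at chr7:100472741-100472990 on the plus strand for Ucp3, chr5:17835897-17836146 on the minus strand for Cd36 and chr6:5496279-5496528 on the minus strand for Pdk4.
Ucp3: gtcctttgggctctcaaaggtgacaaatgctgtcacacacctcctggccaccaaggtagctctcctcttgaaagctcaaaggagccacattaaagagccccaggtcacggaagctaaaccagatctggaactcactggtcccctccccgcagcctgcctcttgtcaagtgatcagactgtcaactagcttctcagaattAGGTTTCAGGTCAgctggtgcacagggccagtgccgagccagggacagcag
Cd36: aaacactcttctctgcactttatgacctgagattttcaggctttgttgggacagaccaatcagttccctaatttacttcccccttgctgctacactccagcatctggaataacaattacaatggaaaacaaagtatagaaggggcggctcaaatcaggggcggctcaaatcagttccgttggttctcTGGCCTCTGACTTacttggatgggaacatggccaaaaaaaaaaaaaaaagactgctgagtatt
Pdk4: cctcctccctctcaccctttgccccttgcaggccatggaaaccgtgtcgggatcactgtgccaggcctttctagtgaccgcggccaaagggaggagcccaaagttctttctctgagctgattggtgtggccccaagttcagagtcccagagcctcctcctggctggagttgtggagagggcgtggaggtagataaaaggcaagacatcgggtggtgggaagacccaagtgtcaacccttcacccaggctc
Within these limits no match was found in the windows of Pdk4, Ucp2, Acot2, Fabp3 and Acadl, which says only that these letters are not in these windows. Whether any match is bound was not measured.

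Ucp3 had a log2 signal of 8.92, 9.34 and 9.23 in the 3 control tongues and of 7.55, 7.76 and 7.73 in the 3 4NQO-treated tongues. Every treated tongue lay more than 1 log2 unit below the lowest control tongue. The mean went from 9.16 ± 0.22 (SD, n = 3) to 7.68 ± 0.11 (SD, n = 3), a log2 difference of -1.48 (standard error 0.16), which is 2.80-fold lower. A second probe set of Ucp3 read 8.97, 8.89 and 8.77 in control and 7.26, 6.96 and 7.15 in 4NQO-treated tongue. It was 3.38-fold lower, or -1.76 on the log2 scale (standard error 0.15), and its groups did not overlap either. Both probe sets read the same 6 RNA samples, so the second is no independent replicate. Leaving out 1 array at a time gave differences from -1.61 to -1.39. The adjusted p of Ucp3, which was chosen on this fall, was 0.0174 in limma and is no test of it. That value depended on the setting, from 0.00803 to 0.182 over 15 alternatives of the same arrays, on both sides of 0.05.

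**Figure D1:**
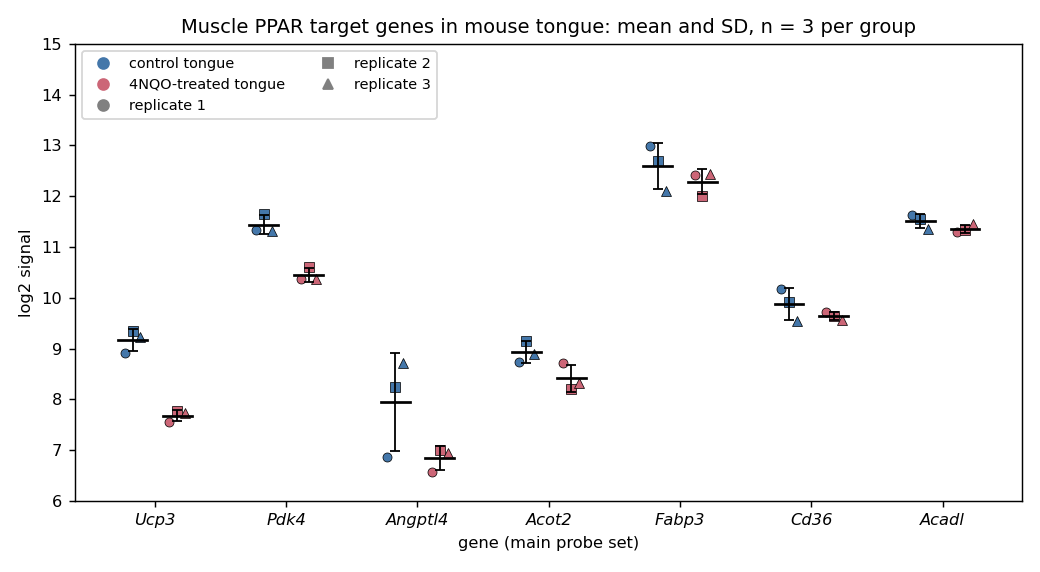
Log2 signal (vertical axis) of the 7 measured genes (horizontal axis) in 3 control and 3 4NQO-treated tongues, 1 point per tongue, with bars for group means and SD. The groups stand apart for Ucp3 and Pdk4, nearly touch for Acot2 and overlap for Angptl4, Fabp3, Cd36 and Acadl.

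Pdk4 was lower in each 4NQO-treated tongue than in each control tongue but missed the threshold. Its log2 signal was 11.34, 11.65 and 11.31 in control and 10.37, 10.60 and 10.36 in 4NQO-treated tongue. The means were 11.44 ± 0.19 (SD, n = 3) and 10.44 ± 0.14 (SD, n = 3), a 1.99-fold lower signal. The log2 fold change was -0.995 (standard error 0.14, 95% confidence interval -1.31 to -0.68, limma, adjusted p = 0.0522). Under 14 alternative settings the difference lay between -1.14 and -0.87, with adjusted p from 0.0506 to 0.182 in limma, so none passed. Pdk4 has a single probe set.

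None of the 6 measured genes other than Ucp3 passed an adjusted p of 0.05 in limma in either direction, while over all genes 0.00550% were lower and 0.126% higher at that threshold. Pdk4, Angptl4 and Acot2 were lower at an unadjusted p under 0.05, which is 3 of 6, and 0 of 6 were higher. Over all genes these shares were 3.74% and 6.68%. Groups did not overlap, with 4NQO lower, for Pdk4 and Acot2, 2 of 6, against 7.18% of all genes, and were never separated with 4NQO higher, against 9.59%. All 6 log2 fold changes were below 0, as were 9514 of all 18193 genes. Their median was -0.41 against -0.01 over all genes. With each array centred on its skeletal muscle markers, which moved the median of all genes by 0.12, all 6 stayed below 0 and 1 of 6, Pdk4, was lower at an unadjusted p under 0.05. The genes were chosen with earlier results known, and nothing is read from these shares.

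Angptl4, a secreted inhibitor of lipoprotein lipase, had the widest spread among control tongues of the 7 genes. It read 6.87, 8.25 and 8.72 in control and 6.57, 7.00 and 6.95 in 4NQO-treated tongue. Control 1 lay below 2 of the 3 treated tongues, so the groups overlapped. The log2 fold change was -1.11 (standard error 0.43, 95% confidence interval -2.09 to -0.12, limma, adjusted p = 0.434). It ran from -1.64 without control 1 to -0.72 without control 3, and the mean of both probe sets gave -0.57. A second probe set stayed at 1.80 and 1.77, far below the array medians, and was not shown to be above background.

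Acot2, a mitochondrial thioesterase that frees fatty acids from coenzyme A, read 8.73, 9.16 and 8.89 in control and 8.71, 8.20 and 8.33 in 4NQO-treated tongue. The lowest control and the highest treated tongue were nearly level. The log2 fold change was -0.51 (standard error 0.18, 95% confidence interval -0.93 to -0.09, limma, adjusted p = 0.395). A dimmer probe set gave -0.59 with overlapping groups.

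Of the genes that bring fatty acids in, Fabp3, the muscle and heart fatty acid binding protein, read 13.00, 12.69 and 12.10 in control and 12.42, 12.01 and 12.44 in 4NQO-treated tongue. Its log2 fold change was -0.30 (95% confidence interval -0.83 to 0.23, limma, adjusted p = 0.673), and a dimmer probe set gave -0.71. Cd36, a membrane receptor for fatty acids, read 10.18, 9.92 and 9.55 in control and 9.73, 9.65 and 9.56 in 4NQO-treated tongue. Its log2 fold change was -0.24 (95% confidence interval -0.64 to 0.16, limma, adjusted p = 0.658), and its other probe sets gave -0.26 and -0.32. Acadl, an acyl-CoA dehydrogenase of mitochondrial fatty acid oxidation, read 11.63, 11.56 and 11.35 in control and 11.30, 11.33 and 11.45 in 4NQO-treated tongue. Its log2 fold change was -0.15 (95% confidence interval -0.42 to 0.11, limma, adjusted p = 0.669). Groups overlapped for all 3 genes, and all 3 intervals include 0. With 1 array left out the values ran from -0.55 to -0.10 for Fabp3, from -0.41 to -0.09 for Cd36 and from -0.23 to -0.10 for Acadl, in each case lowest without control 3 and closest to 0 without control 1.

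**Figure D2:**
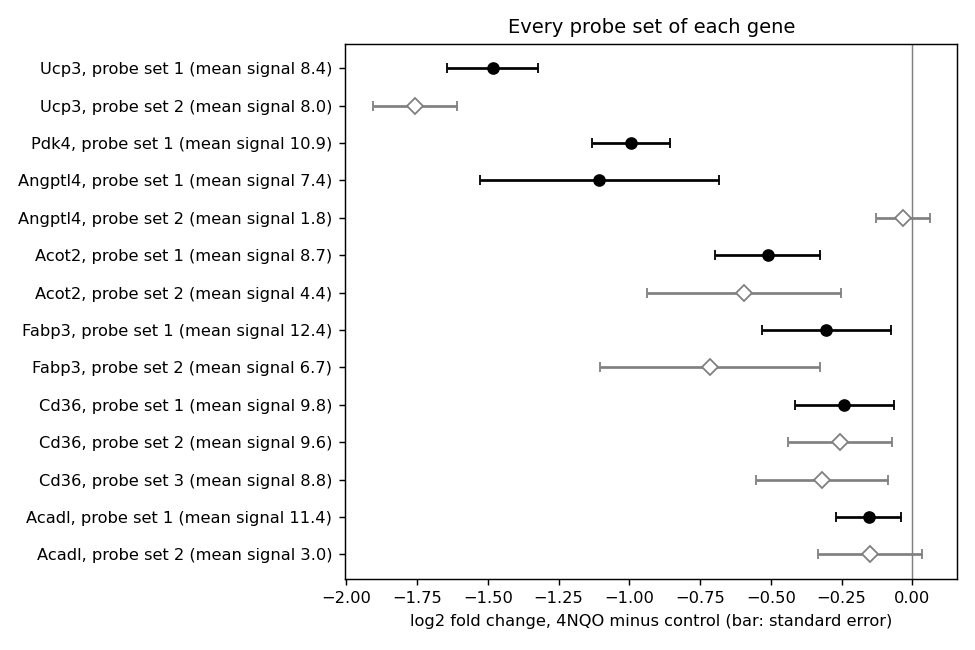
Log2 fold change, 4NQO minus control, of every probe set annotated to 1 of the 7 genes alone, with bars for the standard error. Both Ucp3 probe sets lie below -1, the 3 of Cd36 lie between -0.32 and -0.24, and the low second probe set of Angptl4 lies at -0.03.

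Among the other 18192 genes, Pdk4 had the profile most like that of Ucp3 over the 6 arrays. Likeness was the root mean square log2 difference between profiles after each gene's mean was removed, and it was 0.27 for Pdk4. Tenm2 at 0.30, Flrt1 at 0.31, Bbs4 at 0.31 and Arrdc2 at 0.34 came next. Angptl4 took place 98 and Acot2 place 226, while Cd36, Acadl and Fabp3 took places 3754, 3793 and 5066. The profiles most like Pdk4 were those of Tenm2 at 0.12, Bbs4 at 0.16, Txnip at 0.17, Mettl21e at 0.18 and Flrt1 at 0.18. These are descriptions over 6 arrays that share the difference between groups. Each gene was read by its probe set of highest mean. On that probe set of Ucp3, control 1 and 4NQO 1 were the lowest of their groups, but on its second probe set they were the highest. Likeness to the second probe set was not measured.

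PDK4 acts on pyruvate dehydrogenase, which turns pyruvate into acetyl-CoA, and none of 10 other genes of this complex and its regulators passed in limma. Their median log2 fold change was -0.16 (-0.04 under muscle-marker centring), and 9 of 10 values were below 0, against 9514 of all 18193 genes. Pdhx alone, 1 of 10, was lower at an unadjusted p under 0.05, against 3.74% of all genes. Pdhx, which anchors a subunit of the complex, had -0.40, and Pdhb, a subunit of its first enzyme, had -0.20. The sister kinase Pdk3 had 0.42, opposite in sign to Pdk4.

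UCP3 belongs to a family of mitochondrial carriers, and none of 6 other family members and nucleotide carriers passed, with a median of -0.12 that became 0.0028 under muscle-marker centring. Slc25a27, also called UCP4, had -0.71 (limma, adjusted p = 0.436), or -0.29 with the mean of all its probe sets. By the probe set of highest mean it was the 1 of 6 lower at an unadjusted p under 0.05, against 3.74% of all genes. Slc25a4, the muscle ADP/ATP carrier, had -0.15. Ucp1, the uncoupling protein of brown fat, went from 3.14 to 2.80, below the array medians in both groups and not shown to be above background.

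All 17 genes of mitochondrial fatty acid oxidation had values below 0, as did 9514 of all 18193 genes. Their median was -0.33, but none passed in limma. Under muscle-marker centring 16 were below 0, with a median of -0.21. Lower at an unadjusted p under 0.05 were 3 of 17, against 3.74% of all genes, and 0 of 17 under that centring. The 3 were Eci1, an isomerase for unsaturated fatty acids, at -0.50, Hadha, a subunit of the trifunctional protein, at -0.43, and the thiolase Acaa2 at -0.33, each with an adjusted p of 0.463 or 0.466 from limma. In 16 of the 17 genes the lowest control tongue was control 3, against 31% of all genes, and in 13 the lowest treated tongue was 4NQO 2, against 41%. These were the arrays on which the Gapdh control probe sets gave the largest 3′ minus 5′ differences, 1.67 and 1.07 against 0.086 to 0.47 on the others. The actin control probe sets did not single out the same arrays. Their difference was largest on 4NQO 1, at 1.12, with 1.01 on control 3, 0.95 on 4NQO 2 and 0.55 to 0.83 on the others. The median of the 17 genes was -0.37 without both control 3 and 4NQO 2, -0.22 without control 1 and -0.24 without control 2 or without 4NQO 2. The part of RNA quality in these values was not tested.

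The lipid droplet genes gave a median of -0.41 over 11 genes, with none past the threshold. Below 0 were 10 of 11 (7 under muscle-marker centring), against 9514 of all 18193 genes. Lower at an unadjusted p under 0.05 were 3 of 11 (1 under that centring), against 3.74% of all genes. The 3 were perilipins, proteins that coat lipid droplets. Plin5, the form of oxidative tissues, had -0.60 (limma, adjusted p = 0.290), Plin4 had -0.61 (limma, adjusted p = 0.296) and Plin3 had -0.57. Groups did not overlap for Plin5 and Plin4, 2 of 11, against 7.18% of all genes with 4NQO lower. The median was -0.09 without 4NQO 2, -0.17 without control 2 and -0.24 without control 1.

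Fatty acid uptake and binding genes had values in both directions around a median of -0.19 (-0.06 without control 1), and none of 8 passed. Fabp5, the fatty acid binding protein of epidermis and other epithelia, was higher in every treated tongue, by 0.83 on the log2 scale (limma, adjusted p = 0.0522), and passed in 3 of 14 alternatives. Gpihbp1, which carries lipoprotein lipase to the capillary wall, was lower in every treated tongue, with -0.95 (limma, adjusted p = 0.395), or -0.55 without 4NQO 2. Acsl6, an acyl-CoA synthetase, had -0.45. Of 5 thioesterases other than Acot2, whose median was 0.10 but below 0 without control 3 or 4NQO 1, Acot7 had 0.82 (limma, adjusted p = 0.118) with groups that did not overlap. Acot13 had -0.30 and Acot9 had 0.21. Groups did not overlap, with 4NQO higher, for 1 of 8 uptake and binding genes and 1 of 5 thioesterases, against 9.59% of all genes. With 4NQO lower it was 1 of 8 and 0 of 5, against 7.18%.

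None of the 13 measured PPAR receptors, partners and coregulators passed, and none was past an unadjusted p of 0.05 in either direction. At that unadjusted p 3.74% of all genes were lower and 6.68% higher. Below 0 were 10 of 13 values (8 under muscle-marker centring), against 9514 of all 18193 genes. The median of the 13 was -0.28, but it was 0.02 without control 2, -0.07 without 4NQO 2 and -0.14 without control 1. Lpin1, a coactivator that is also a phosphatidate phosphatase, had -0.29, the retinoid X receptor Rxrg had -0.41, and Ppard, the main PPAR of muscle, had 0.48. Ppara and Ppargc1a, the fatty acid receptor and the coactivator of mitochondrial genes, were named after their values were seen. Ppara had -0.35 and Ppargc1a -0.48, with overlapping groups. With the mean of all probe sets Ppara had -0.39 and Ppargc1a -0.09.

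Among 10 peroxisomal and liver-type PPAR targets Acaa1b, a peroxisomal thiolase, rose past the threshold, and the other 9 did not pass. That is 1 of 10, against 0.126% of all genes higher at that threshold. Acaa1b read 2.63, 3.34 and 3.21 in control and 6.59, 7.03 and 6.14 after 4NQO (limma, adjusted p = 0.0101). Its control signals lay below the array medians and were not shown to be above background, so no fold is given. The call was lost without control 2, without 4NQO 2 and without both arrays of largest Gapdh difference. Its adjusted p from limma reached 0.0765. Hsd17b4, a multifunctional enzyme of peroxisomal oxidation, had -0.29, or -0.07 with the mean of all its probe sets. The pantetheinase Vnn1 was low in every tongue and not shown to be above background. The median of the list was -0.18, or -0.10 without 4NQO 2.

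Fasting raises Pdk4 through FoxO factors and glucocorticoids as well as PPARs. Of 16 further genes that respond to these, none passed in limma, 15 values were below 0 and the median was -0.48. Over all genes 9514 of 18193 values were below 0. Lower at an unadjusted p under 0.05 were 7 of 16, against 3.74% of all genes. Under muscle-marker centring 13 values were below 0, 4 of these genes were lower at an unadjusted p under 0.05, and the median was -0.36. Txnip, an arrestin-like protein that limits glucose uptake, read 11.57, 11.82 and 11.58 in control and 11.02, 10.78 and 10.55 in 4NQO-treated tongue, a log2 difference of -0.87 (limma, adjusted p = 0.0786). Fkbp5, a glucocorticoid-induced co-chaperone, read 8.84, 9.27 and 10.11 in control and 8.50, 8.05 and 8.46 in treated tongue, with -1.07 (limma, adjusted p = 0.280). Tsc22d3, also called GILZ, had -0.60 (limma, adjusted p = 0.327). Groups did not overlap for these 3 and for Sesn1 and Klf15, both named after their values were seen. That is 5 of 16 with 4NQO lower, against 7.18% of all genes. With the mean of all probe sets the values were -1.22 for Txnip, -0.78 for Fkbp5 and -0.33 for Tsc22d3.

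Lipogenesis genes, which build fatty acids, had a median of 0.14 over 9 genes, 6 above 0, and none passed. The median was below 0 without control 1, at -0.12, and without 4NQO 1, at -0.05. Scd2, a desaturase, had 0.78 (limma, adjusted p = 0.241), Acly, which makes cytosolic acetyl-CoA, had 0.33, and the elongase Elovl5 had -0.30.

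**Figure D3:**
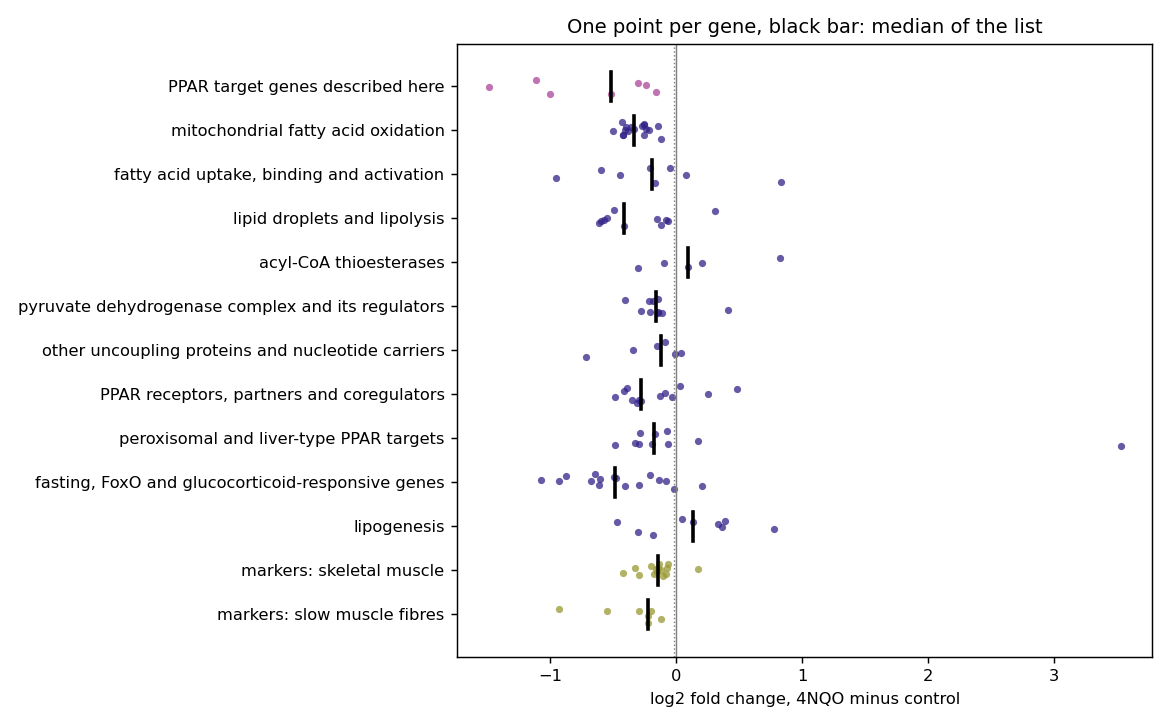
Log2 fold change, 4NQO minus control, of each gene in the further lists, 1 point per gene, with a bar at the median of each list. Over all 18193 genes, 9514 values were below 0. All fatty acid oxidation genes lie below 0 with a median of -0.33 (16 of 17 below 0 under muscle-marker centring), the lipogenesis and thioesterase medians lie above 0 (below 0 when some single arrays are left out), and Acaa1b, whose control signals were not shown to be above background, lies farthest to the right.

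Most skeletal muscle markers were high in all 6 tongues. Myh2 was an exception, at 5.43 in control 3 and 5.01 in 4NQO 2 against 8.49 to 9.36 in the others. Actn3 was lowest on the same arrays, at 7.74 and 7.30 against 8.78 to 9.58. These are also the arrays of largest Gapdh difference, and what sets them apart was not tested. The means of 8 of 15 markers lay within 1 log2 unit of the brightest probe sets, which read 14.12 to 14.26. Near that ceiling a change of level may be compressed. Read by the probe set of highest mean, none of the 15 passed, even at an unadjusted p under 0.05. Of these values 14 were below 0, against 9514 of all 18193 genes, and the median was -0.14. With the mean of all probe sets Myh4 had -0.64 (limma, unadjusted p = 0.0265) in place of -0.17. Eno3 and Cacna1s kept -0.20 and -0.30 there. Without control 3 the values were -0.28 for Eno3, -0.45 for Cacna1s and -0.21 for Myh4. In 14 of the 15, control 3 was the lowest control tongue. The summed muscle signal was 16.67 to 16.97 in control and 16.64 to 16.80 in treated tongue. The median muscle marker was lower in treated tongue with no overlap, 13.07 to 13.15 against 13.16 to 13.37 in control. With each array set against its own median muscle marker, Ucp3 read -4.45 to -3.82 in control and -5.52 to -5.37 in treated tongue. The log2 difference was -1.36 for Ucp3 and -0.87 for Pdk4 on that scale. This median lies near the ceiling, so the centring may miss a change of muscle content. The part of muscle content in the Ucp3 and Pdk4 differences was not tested.

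Slow fibre markers had values below 0 in 7 of 7, or 6 of 7 under muscle-marker centring, with a median of -0.22. Over all genes 9514 of 18193 values were below 0. Myh7, the slow myosin heavy chain, was low in every tongue at 2.81 to 3.46, and so was Myl2 at 2.92 to 4.08. Tnnc1, at 3.99 to 4.65, was low in all but control 3. These genes were not shown to be above background. Tnnt1, slow troponin T, had -0.92 (limma, adjusted p = 0.280) and Tnni1, slow troponin I, had -0.54. Both, 2 of 7, were lower at an unadjusted p under 0.05, against 3.74% of all genes. Their groups did not overlap either, against 7.18% of all genes with 4NQO lower. The summed slow fibre signal, set mostly by the calcium pump Atp2a2, was 10.76 to 11.54 in control and 10.53 to 11.17 in treated tongue. The part of slow fibres in the Ucp3 and Pdk4 differences was not tested.

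The summed signals of other cell types overlapped between groups. Those of 7 endothelial markers were 10.93 to 11.42 in control and 10.96 to 11.25 in treated tongue, of 6 macrophage markers 11.41 to 12.48 and 11.41 to 12.46, and of 5 keratinocyte markers 15.23 to 15.29 and 15.23 to 15.43. The median keratinocyte marker did not overlap, at 12.90 to 13.20 in control and 13.21 to 13.38 in treated tongue, and Krt14, a basal keratin, had 0.32 (limma, adjusted p = 0.442), higher at an unadjusted p under 0.05. The part of keratinocyte content in the results was not tested. Of 4 adipocyte markers measured, Adipoq, Retn and Cidec were high in the same 3 tongues, 1 control and 2 treated, while Lep was low in all 6. Adipoq, the fat cell hormone adiponectin, read 3.88, 7.86 and 4.23 in control and 8.22, 3.37 and 7.92 in treated tongue.

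**Figure D4:**
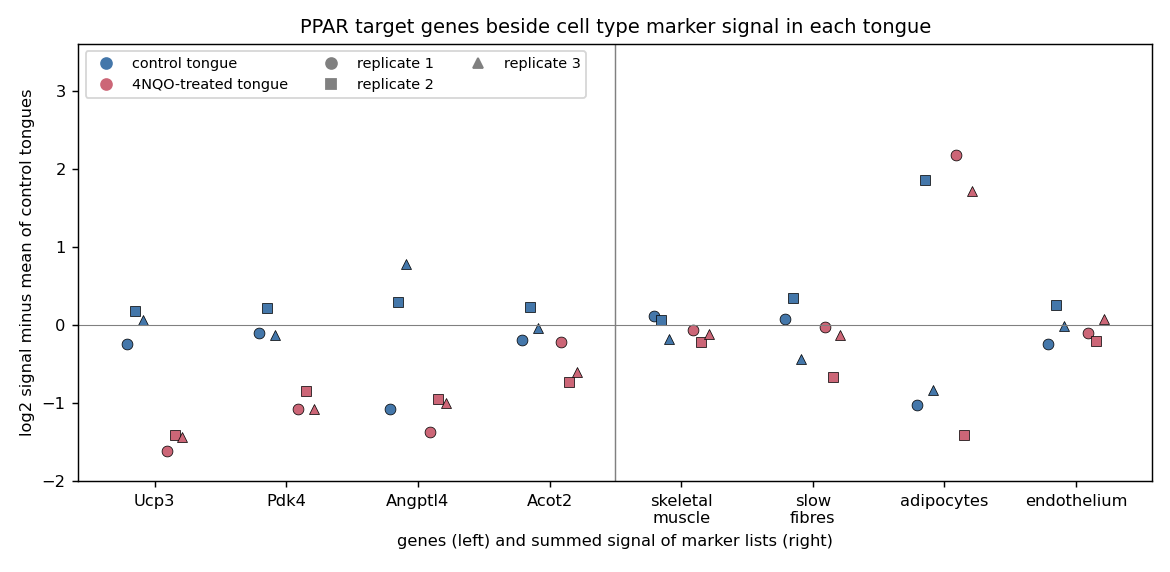
Log2 signal relative to the average control tongue (vertical axis) for Ucp3, Pdk4, Angptl4 and Acot2 and for the summed signal of 4 marker lists (horizontal axis), 1 point per tongue. The 4NQO-treated tongues lie below all controls for Ucp3, Pdk4 and, narrowly, Acot2, and the groups overlap for Angptl4. The marker sums of the groups overlap, and the adipocyte sum splits 3 tongues from 3.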

How the data were processed

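Log2 signals per probe set of 3 control and 3 4NQO-treated mouse tongues were used as deposited. Normalization had been done by the authors with Bioconductor packages, by a method not stated in the sources used here. The paper names a different deposited series for its arrays, so it is uncertain whether that description covers these values. Of 45101 probe sets, 34945 are annotated to 1 gene and were used. Left out were 932 shared by several genes, 64 array controls and those with no gene symbol. A gene was read by its probe set of highest mean over the arrays, which gave 18193 genes, and 18032 were found by Entrez ID in the GRCm38.p6 table. No filter on low signals was applied.

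Groups were compared with limma 3.58.1 in R 4.3.3 (lmFit, then eBayes with a trend in intensity). The threshold was a Benjamini-Hochberg adjusted p of 0.05 over all genes. The fit was tested on simulated data. With 3 against 3 tongues the smallest two-sided permutation p is 0.1. Windows were searched in Python 3.11.15 and figures drawn with matplotlib 3.10.9. The members and lists were chosen with earlier results of these data known. Named are the members, the genes of each list past the threshold and its 3 with the smallest p, and the 5 genes most like Ucp3 and Pdk4, and for markers those that results turn on. Alternatives were quantile normalization, centring on array medians or on muscle markers, leaving out genes below the median gene, other probe sets, no trend, the replicate number as a block and leaving out arrays. SAM, named in the methods, was not run.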

Additional observations from a re-analysis of the deposited data

How the results depend on the processing

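No gene of the set other than Ucp3 passed limma's threshold under any alternative. Genes higher over the whole table numbered 12 when genes below the median gene, a mean log2 signal of 6.13, were left out, 15 with the mean of all probe sets, 2 with the replicate block, 4 without both arrays of largest Gapdh difference, 67 with muscle-marker centring and 0 to 25 with 1 array left out (0 without control 2, 1 without 4NQO 2 and 10 without 4NQO 1). Genes lower numbered 2 with no trend, 0 with the replicate block, 0 without both those arrays, 3 with muscle-marker centring and 0 to 2 with 1 array left out, with 0 without control 2, control 3, 4NQO 1 or 4NQO 2. Muscle-marker centring moved the median of all genes by 0.12.

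The second probe set of Ucp3 gave -1.76. The median of the peroxisomal list was -0.29 without genes below that signal and -0.0559 with muscle-marker centring, an alternative that was chosen for the lists after seeing the data. With 1 array left out, the lipid droplet median ran from -0.58 to -0.0887 (without 4NQO 2) and the thioesterase median from -0.14, without 4NQO 1, to 0.20. The thioesterase median was also below 0 without control 3 and without both arrays of largest Gapdh difference. The medians of the PPAR receptor list (without control 2), the lipogenesis list (without control 1 or 4NQO 1) and the carrier list (muscle-marker centring) changed sign too.

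The labels do not say whether same-numbered tongues were paired. Deviations of same-numbered tongues correlated at 0.29, -0.51 and 0.05, and those of other pairs at -0.52 to 0.48. With 3 tongues a group these values cannot settle it. With the replicate block, which cannot change a difference in this balanced design, the adjusted p from limma was 0.0890 for Ucp3 and 0.166 for Pdk4. With 3 arrays a group, small differences of single genes can be missed, and signals near either end of the array range limit what can be read.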
